A study of Mus musculus with 6 samples.

Results

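Phagocyte NADPH oxidase is the enzyme with which phagocytes make superoxide, and 4 of its subunit genes, Cybb, Cyba, Ncf1 and Ncf4, were followed in HSCs (hematopoietic stem cells), from which all blood lineages arise. All 4 were found by name among the 27198 genes of the expression table, each on 1 row. They were chosen by name with their read counts in this same contrast of l-FA and Ctrl in view, so the difference between the groups is given below as a description, with no test. The study compared wild type C57BL/6 male mice 8 to 10 weeks old without irradiation, which received either the solvent (Ctrl) or ferulic acid (FA), a plant phenolic acid, by intraperitoneal injection at 50 mg/kg each day for 30 days (l-FA). HSCs were sorted from bone marrow as lineage-negative, Sca-1+, c-Kit+, CD34- and Flk2- cells, and amplified cDNA was sequenced. There were 3 Ctrl and 3 l-FA libraries, and how many mice stood behind a library was not given in the sources used here. The p-values below therefore measure the spread between these libraries, which may be technical. The libraries held 19287735 to 20380610 counts in Ctrl and 19505689 to 20376031 in l-FA.

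The oxidase is a membrane heterodimer joined by soluble subunits. Cybb encodes gp91phox (NOX2), the catalytic subunit that passes electrons from NADPH to oxygen, and Cyba encodes p22phox, the membrane partner that stabilizes it. Ncf1 encodes p47phox, the organizer that is phosphorylated upon activation, and Ncf4 encodes p40phox, which binds a membrane phosphoinositide. The GTPase RAC, mainly RAC2 in neutrophils, completes the active complex. The oxidase is best known from neutrophils and macrophages, where its loss causes chronic granulomatous disease, and reactive oxygen species also influence the quiescence of HSCs.

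Cybb is listed on chromosome X from 9301491 to 9354010 (ENSMUSG00000015340), Cyba on chromosome 8 from 123151515 to 123159669 (ENSMUSG00000006519), Ncf1 on chromosome 5 from 134248907 to 134258479 (ENSMUSG00000015950) and Ncf4 on chromosome 15 from 78129001 to 78146780 (ENSMUSG00000071715). All 4 encode proteins, and these are whole gene spans as the deposited table lists them, for which the submitters' processing notes name build GRCm39. Of the 4, only Ncf1 overlapped another listed gene, Gtf2ird2, and whether the counting used strand was not given in the sources used here.

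The promoters of 3 of these genes are shown because the RNA of each was lower in l-FA, though by very different amounts. PU.1, a myeloid transcription factor encoded by Spi1, is also known to act on the gp91phox promoter. Whether it had a part in these differences was not tested. Each sequence holds the 250 bases before the gene start, from RefSeq on build GRCm38.p6, written 5′ to 3′ on the strand of the gene.
Cybb (chrX:9469325-9469574, minus strand): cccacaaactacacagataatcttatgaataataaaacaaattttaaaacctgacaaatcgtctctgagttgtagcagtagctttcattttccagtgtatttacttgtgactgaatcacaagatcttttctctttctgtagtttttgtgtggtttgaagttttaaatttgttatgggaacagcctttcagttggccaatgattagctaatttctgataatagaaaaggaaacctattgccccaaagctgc
Cyba (chr8:122432941-122433190, minus strand): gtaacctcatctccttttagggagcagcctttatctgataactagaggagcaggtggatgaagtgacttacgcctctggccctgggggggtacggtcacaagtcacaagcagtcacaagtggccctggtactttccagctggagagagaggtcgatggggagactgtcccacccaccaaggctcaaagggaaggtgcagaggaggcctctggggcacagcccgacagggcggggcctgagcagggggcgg
Ncf1 (chr5:134229626-134229875, minus strand): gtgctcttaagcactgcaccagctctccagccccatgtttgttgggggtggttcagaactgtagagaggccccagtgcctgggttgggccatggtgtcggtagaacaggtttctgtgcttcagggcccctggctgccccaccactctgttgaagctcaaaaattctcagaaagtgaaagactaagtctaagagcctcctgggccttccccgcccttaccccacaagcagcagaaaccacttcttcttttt
The letters GAGGAA, found in many PU.1 sites, were searched on both strands, and none of the 3 windows held them. Of 32851 promoter windows of this length, 23.3% did. When the window was extended to 50 bases after the start, a choice made after the sequences were seen, Cybb held 1 match, read on the opposite strand at bases 10 to 15 after the start, and 28.3% of all such windows held one. That match is shown in capitals within 30 bases on the minus strand, chrX:9469298-9469327.
Cybb start site: tgctgttttcatTTCCTCatcagaagaaga
Only GAGGAA was searched, and the shorter GGAA, which each of the 3 windows holds on one strand or the other, was not counted. The lack of a match therefore does not show that a window has no PU.1 site. A match of letters is a description of the sequence, not of binding.

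Cybb, the catalytic subunit, was the member whose level differed most between the groups. It had 20.4, 20.1 and 21.7 CPM (the gene's counts scaled to library size, after TMM normalization) in the Ctrl libraries and 7.48, 6.73 and 8.41 CPM in the l-FA libraries. The groups were far apart, with the highest l-FA library well below the lowest Ctrl library. Its mean level was 20.7 ± 0.875 CPM in Ctrl against 7.54 ± 0.842 CPM in l-FA (SD over 3 libraries each). This was 2.75-fold lower, or -1.46 as a log2 fold change with a standard error (SE) of 0.098 from edgeR. Raw counts were 375 to 433 in Ctrl and 135 to 168 in l-FA, so that counting alone gives a coefficient of variation of 5.0% and 8.08%, against 4.22% and 11.2% observed between libraries. Of the 16520 genes tested, 3.35% had a lower log2 fold change. In bulk samples of sorted cells, fewer cells that express a gene and less RNA per cell cannot be told apart.

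Ncf4, which encodes p40phox, had 105.1, 106.3 and 110.0 CPM in Ctrl and 83.4, 85.4 and 86.8 CPM in l-FA. Every l-FA library was below every Ctrl library. The log2 fold change was -0.33 (SE 0.034, edgeR), a level 20.5% lower. Ncf1, which encodes p47phox, had 188.1, 200.5 and 192.5 CPM in Ctrl and 160.8, 168.1 and 169.9 CPM in l-FA. Its groups were also apart, but by less, with a log2 fold change of -0.22 (SE 0.036, edgeR), or 14.2% lower. Cyba, which encodes p22phox, had 131.3, 126.8 and 127.0 CPM in Ctrl and 114.1, 117.0 and 111.1 CPM in l-FA. Again no library of one group entered the range of the other, and the log2 fold change was -0.17 (SE 0.033, edgeR), or 11.2% lower. The l-FA libraries were below Ctrl libraries for 4 of 4 members, where this held for 29.9% of all genes tested (and the opposite for 30.4%), a count from the contrast that was in view when the genes were chosen. The median log2 fold change was -0.28 over the 4 members and 0.00350 over all genes tested.

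**Figure D1:**
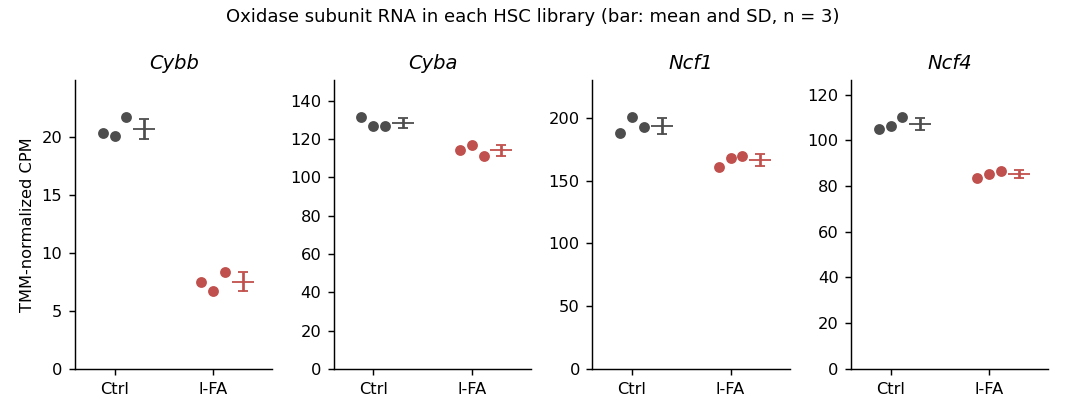
TMM-normalized CPM (linear axis from 0) of Cybb, Cyba, Ncf1 and Ncf4 in the 3 Ctrl and 3 l-FA libraries, with 1 point per library and the mean and SD beside them. Cybb lies at 20.1 to 21.7 CPM in Ctrl and 6.73 to 8.41 CPM in l-FA, whereas the other 3 genes differ by a small part of their level.

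The small differences of Cyba, Ncf1 and Ncf4 depended on how libraries were scaled. When each library was scaled to its total count alone, a choice added after the data were seen, the levels were lower in l-FA by 6.19% for Cyba, 9.35% for Ncf1 and 16.1% for Ncf4, and by 61.6% for Cybb. The median log2 fold change of all genes tested was then 0.082. In none of the 13 alternatives did the difference of a member change sign.

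**Figure D2:**
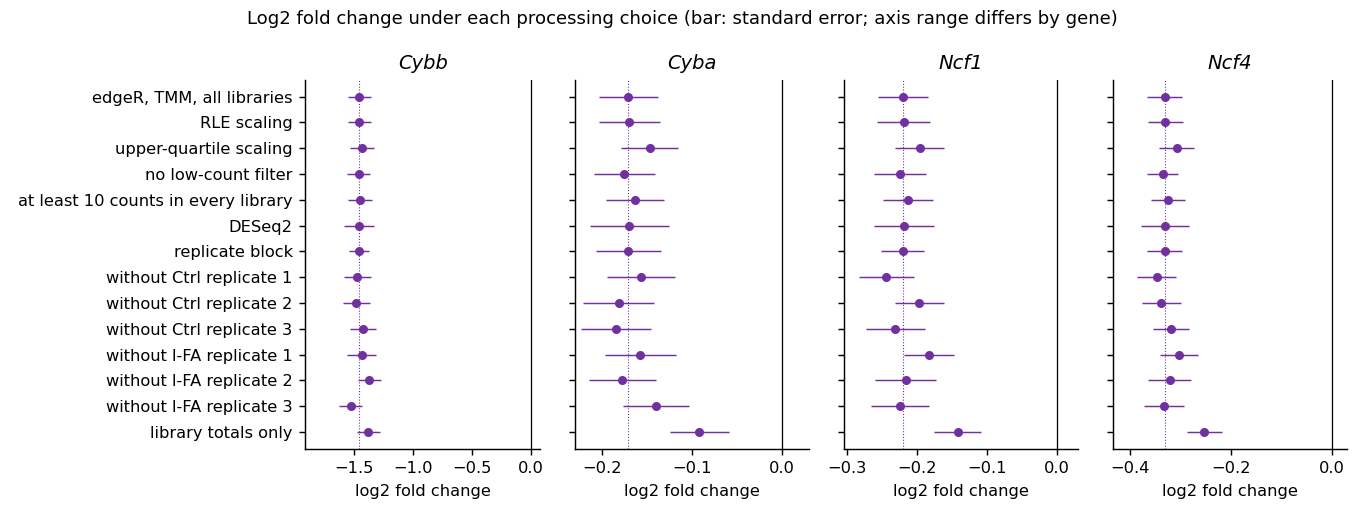
Log2 fold change of l-FA against Ctrl (horizontal axis, whose range differs by gene) for each of the 4 members under edgeR with TMM and under 13 other processing choices, with bars for the standard error. All points lie below 0, and scaling to library totals alone brings Cyba, Ncf1 and Ncf4 nearest to it, at -0.092, -0.14 and -0.25.

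Per length, Cyba was the most abundant of the 4 subunits and Cybb the least, in both groups. FPKM, the count divided by gene length and library total, was 96.3 ± 1.93 for Cyba, 34.7 ± 0.979 for Ncf4, 27.9 ± 0.841 for Ncf1 and 3.21 ± 0.152 for Cybb in Ctrl (SD, n = 3). In l-FA the order was the same, at 90.3 ± 2.37, 29.1 ± 0.485, 25.3 ± 0.645 and 1.23 ± 0.137 FPKM in that order (SD, n = 3). The ranges of neighbours in the order did not overlap in either group. Cyba was above 97.1% of all genes tested in Ctrl FPKM, whereas Cybb was above 46.7% in Ctrl and 27.5% in l-FA.

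These levels rest on the lengths behind the FPKM values, which were 1296 bases for Cyba, 3002 for Ncf4, 6736 for Ncf1 and 6289 for Cybb. The longest coding transcripts in GENCODE M21 are shorter, at 744, 1464, 2882 and 4752 bases in the same order. Divided by these lengths instead, Ncf4 and Ncf1 were close, at 73.2 ± 1.73 and 67.2 ± 2.19 CPM per kilobase in Ctrl and 58.2 ± 1.16 and 57.7 ± 1.68 in l-FA (SD, n = 3). Cyba was still the highest, at 173 ± 3.44 in Ctrl, and Cybb the lowest, at 4.36 ± 0.184 (SD, n = 3).

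**Figure D3:**
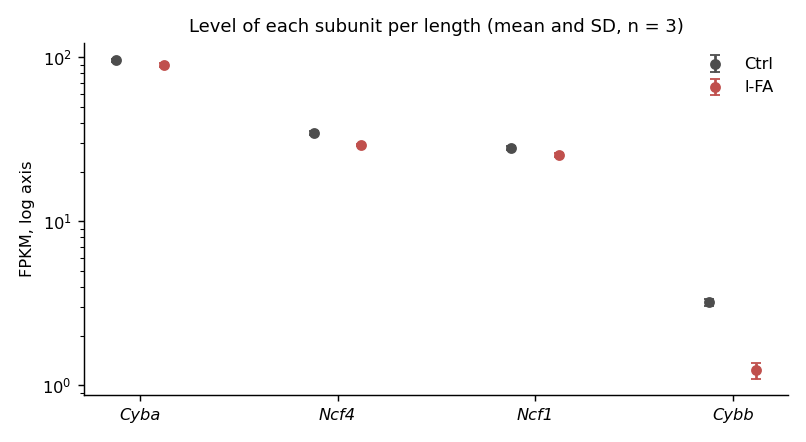
FPKM (log axis) of the 4 subunit genes in Ctrl and l-FA, as mean and SD of 3 libraries. Cyba is highest at 96.3 and 90.3 FPKM, and Cybb is lowest at 3.21 and 1.23 FPKM, the widest gap between the groups.

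Because the subunits work in one complex, their ratios within a library were also examined. The ratio of Cyba to Cybb FPKM was 31.3, 30.6 and 28.4 in the Ctrl libraries and 74.1, 84.3 and 64.1 in the l-FA libraries, so the RNA of the membrane partners was more unequal in l-FA. The ratio of Ncf4 to Cybb was 10.6 to 11.1 in Ctrl and 21.6 to 26.6 in l-FA. The ratio of Ncf4 to Ncf1, both cytosolic subunits, differed less, at 1.19 to 1.28 in Ctrl and 1.14 to 1.16 in l-FA, but again without overlap. Such ratios do not depend on the scaling of libraries, and as they use the same difference that chose the genes, they are given with no test.

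The GTPases and the chaperone of the complex were tested with edgeR over all 16520 genes, with Benjamini-Hochberg adjustment. Of 4 genes, 2 were lower and 1 higher in l-FA at an adjusted p under 0.05, where 25.0% of all genes tested were lower and 25.5% higher, 50.5% in all. Rac2, the GTPase of the neutrophil oxidase, fell from 710.5 ± 10.97 to 650.0 ± 8.331 CPM in l-FA (SD, n = 3). The difference of -0.13 on the log2 scale (SE 0.020, edgeR adjusted p = 0.00214) no longer passed when libraries were scaled to their totals alone (adjusted p = 0.0973 from edgeR).

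Rac1, the widely expressed RAC, had 103.9, 100.3 and 101.7 CPM in Ctrl and 34.6, 9.27 and 38.3 CPM in l-FA, with a single l-FA library far below the other two. It fell by 1.90 on the log2 scale (SE 0.46, edgeR adjusted p = 0.0134) and overlaps the listed genes Daglb and Gm42502. Cybc1, which encodes a chaperone needed for gp91phox protein, had 85.2, 77.5 and 112 CPM in Ctrl and 122, 118 and 117 CPM in l-FA. It rose by 0.38 (SE 0.13, edgeR adjusted p = 0.0492), a call lost upon leaving out any 1 of 5 of the 6 libraries, with the replicate block or without the filter on low counts (adjusted p up to 0.131). Rap1a, a small GTPase found with the cytochrome, was at 118.1 ± 2.37 CPM in Ctrl against 111.9 ± 3.947 CPM in l-FA (SD, n = 3), and its log2 fold change of -0.08 (SE 0.037), which was 0.00067 under library totals alone, did not pass (adjusted p = 0.125 from edgeR).

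Around the complex, 100 genes were listed by role, these 4 included, of which 85 passed the filter on low counts. In l-FA 31 of them were lower (36.5%, against 25.0% of all genes tested) and 22 higher (25.9%, against 25.5%), and 32 did not pass. With a fold change above 2 as well, 8 were lower and 3 higher, where 5.10% and 6.68% of all genes tested were. Of those 3, Nox1 and Noxa1 passed the filter only through l-FA, and without them 20 of 83 genes were higher, 1 of them above 2-fold. Under library totals alone 24 were lower and 26 higher. That scaling moved the median log2 fold change of all genes tested to 0.082, and the shares of all genes called under it were not counted. Over the 85 genes the log2 fold change had a median of -0.08. Among the 8 lower by more than 2-fold, S100a8, S100a9, Mpo and Fcgr3 are also listed below as neutrophil or progenitor markers. The counts of oxidase genes were not repeated without them.

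Of 9 genes of other NOX and DUOX enzymes, 4 were on the table and all at low levels, with none above 4 CPM in any library. Nox4 had at most 11 counts in a library and was not tested. Noxo1, the organizer of NOX1, rose from 1.24 ± 0.389 to 2.89 ± 0.235 CPM (SD, n = 3), by 1.21 on the log2 scale (SE 0.24, edgeR adjusted p = 0.00572). Noxa1, the NOX1 activator, had 0 counts in every Ctrl library but 19, 24 and 26 in l-FA, and was at least 7.28-fold higher against a floor of 3 counts per library. Nox1 had 0, 0 and 2 counts in Ctrl and 23, 11 and 19 in l-FA. Noxa1 and Nox1 passed the filter on low counts only through the l-FA libraries, so they had to differ once tested, and both were named after their values were seen.

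Among 12 genes that control RAC, 5 were lower and 4 higher (41.7% and 33.3%, against 25.0% and 25.5% of all genes tested). The exchange factor Vav2 fell by 0.61 on the log2 scale (SE 0.087, edgeR adjusted p = 0.00143), and Arhgdia, which holds RAC and related GTPases inactive in the cytosol, fell from 800.5 ± 8.37 to 674.4 ± 7.86 CPM (SD, n = 3). Dock2, the main RAC exchange factor of blood cells, rose from 389 ± 5.45 to 498 ± 6.39 CPM (SD, n = 3), by 0.36 (SE 0.021, edgeR adjusted p = 4.88e-05). Abr, a RAC GTPase-activating protein, also rose by 0.36 (SE 0.054, edgeR adjusted p = 0.00179). The calls of Bcr (-0.23, adjusted p = 0.0306 from edgeR) and Arhgap25 (0.49, adjusted p = 0.0363 from edgeR, with groups that overlapped) were lost in 5 and in 4, respectively, of the 6 leave-one-out fits.

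Of 19 kinases linked to oxidase activation, 4 were lower and 3 higher, and 12 did not pass. These shares, 21.1% and 15.8%, were below the 25.0% and 25.5% of all genes tested. Pak1 and Pak2, kinases activated by RAC, fell by 0.19 and 0.20 on the log2 scale (adjusted p = 0.0129 and 0.000539 from edgeR), and Btk by 0.23 (adjusted p = 0.00437). Pak1 did not pass under library totals alone (adjusted p = 0.0655 from edgeR). Syk, the kinase below phagocytic receptors, rose from 212 ± 4.65 to 267 ± 4.37 CPM (SD, n = 3), and Pik3cg, a phosphoinositide 3-kinase of chemoattractant signaling, from 169 ± 4.13 to 218 ± 5.01. Fgr rose by 0.57 (SE 0.10, edgeR adjusted p = 0.00351).

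Receptors linked to oxidase activation were divided. Of 17 genes 12 were tested, 4 lower and 2 higher (33.3% and 16.7%, against 25.0% and 25.5% of all genes tested). The 4 include Fcgr2b, which is inhibitory. Fcgr3, a low-affinity Fc receptor for IgG, had 106.7, 107.1 and 106.9 CPM in the Ctrl libraries and 22.8, 19.8 and 20.7 in the l-FA libraries, and fell by 2.34 on the log2 scale (SE 0.058, edgeR adjusted p = 2.41e-06). The inhibitory Fc receptor Fcgr2b fell by 1.10 (SE 0.16, edgeR adjusted p = 0.00144) and Csf2ra, a subunit of the GM-CSF receptor, by 0.88 (SE 0.13, edgeR adjusted p = 0.00197). Itgam, which encodes the Mac-1 integrin chain CD11b, rose from 44.8 ± 3.61 to 63.6 ± 5.43 CPM (SD, n = 3). Fcer1g, the signaling chain of Fc receptors, rose by 0.23 (adjusted p = 0.0314 from edgeR), a call lost in 5 of the 6 leave-one-out fits. The formyl peptide receptors Fpr1 and Fpr2, with Fcgr1, Fcgr4 and C5ar1, had at most 20 counts in a library and were not tested.

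Of 7 accessory proteins 4 were lower and 1 higher (57.1% and 14.3%, against 25.0% and 25.5% of all genes tested). S100a8 and S100a9, which encode the calprotectin subunits that promote oxidase assembly in neutrophils, fell by 1.54 (SE 0.17, edgeR adjusted p = 0.000474) and 1.02 (SE 0.20, edgeR adjusted p = 0.00546), from 9.60 ± 1.26 and 4.56 ± 1.12 CPM in Ctrl (SD, n = 3). Prdx6, a peroxiredoxin with phospholipase activity, fell from 450.2 ± 11.8 to 345 ± 3.10 CPM (SD, n = 3). Hvcn1, the proton channel that balances the charge moved by the oxidase, fell by 0.29 (SE 0.048, edgeR adjusted p = 0.00276); it was named after its values were seen. The chloride transporter gene Clcn3 rose by 0.52 (SE 0.048, edgeR adjusted p = 0.000255).

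**Figure D4:**
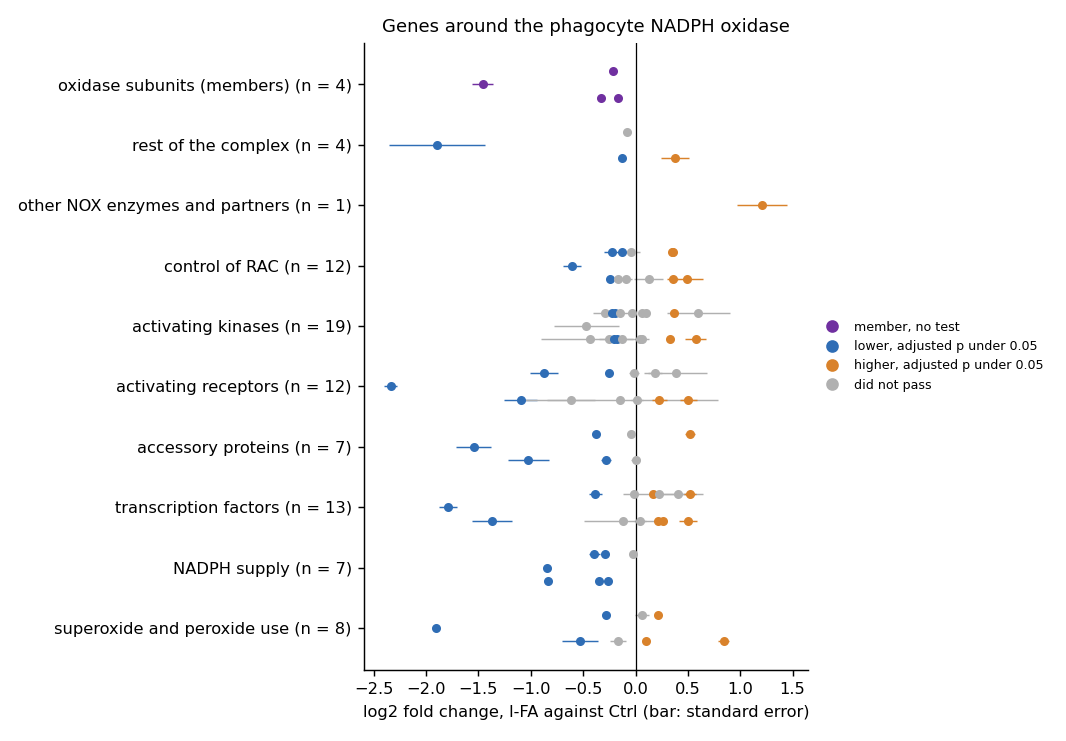
Log2 fold change of l-FA against Ctrl (horizontal axis) for the 4 members, without a test, and for the tested genes around the oxidase by role, with bars for the standard error. Blue points are lower and orange points higher at an adjusted p under 0.05 from edgeR, and Noxa1 and Nox1, at or under 3 counts in every Ctrl library, are left out; Fcgr3 at -2.34 is the lowest point and Noxo1 at 1.21 the highest.

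Of 13 transcription factors that act on the gp91phox promoter or in myeloid commitment, 3 were lower and 5 higher. These were 23.1% and 38.5%, against 25.0% and 25.5% of all genes tested. Spi1, which encodes PU.1, had 106.5, 113.2 and 103.4 CPM in Ctrl and 88.3, 81.8 and 77.7 CPM in l-FA. Its groups were apart, and it fell by 0.38 on the log2 scale (SE 0.059, edgeR adjusted p = 0.00197). Cebpe and Cebpa, factors of granulocyte development, fell by 1.79 (SE 0.086, edgeR adjusted p = 2.49e-05) and 1.37 (SE 0.19, edgeR adjusted p = 0.00132). Irf8, a monocyte and dendritic cell factor that pairs with PU.1, had 204.5, 110.9 and 221.6 CPM in Ctrl and 245.1, 216.5 and 250.1 CPM in l-FA, groups that overlapped, and its difference did not pass (log2 fold change 0.41, adjusted p = 0.210 from edgeR). Hoxa10, Irf2 and Hoxa9 rose by 0.52, 0.50 and 0.26 on the log2 scale (adjusted p = 0.000672, 0.00377 and 0.00068 from edgeR).

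NADPH is the electron donor of the oxidase. Of 7 tested genes listed for NADPH supply, 6 were lower in l-FA (85.7%, against 25.0% of all genes tested), with none higher. Not all of these act in the cytosol, and NADPH itself was not measured. Idh1, the cytosolic isocitrate dehydrogenase, fell from 145 ± 3.22 to 80.7 ± 2.18 CPM (SD, n = 3) and Pgd, of the pentose phosphate pathway, from 233 ± 8.15 to 130.4 ± 0.905 CPM (SD, n = 3), each by 0.84 on the log2 scale (adjusted p = 1.45e-05 and 1.13e-05 from edgeR). H6pd, the hexose phosphate dehydrogenase of the endoplasmic reticulum, fell by 0.39 (SE 0.051, edgeR adjusted p = 0.000939). The mitochondrial Nnt was on 2 rows of the table and was left out of these counts; its larger row had 2122 to 2423 counts in Ctrl and 3983 to 4069 in l-FA.

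Among enzymes that use superoxide or hydrogen peroxide, 3 of 8 tested were lower and 3 higher. These were 37.5% each, against 25.0% and 25.5% of all genes tested. Mpo, the myeloperoxidase of granulocyte precursors, fell by 1.91 (SE 0.030, edgeR adjusted p = 6.54e-07), whereas Epx, the eosinophil peroxidase, rose from 47.5 ± 2.16 to 85.2 ± 4.11 CPM (SD, n = 3). Gpx1 fell by 0.29 and the catalase gene Cat rose by 0.21 (adjusted p = 0.000817 and 0.0008 from edgeR). Prdx1 (-0.53, adjusted p = 0.0422 from edgeR) and Prdx2 (0.10, adjusted p = 0.0263 from edgeR) each lost their call in some of the fits that left out 1 library.

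Since the oxidase is abundant in granulocytes and macrophages, markers of other blood cells were measured in the same libraries. For every list below, the shares over all genes tested were 25.0% lower and 25.5% higher. Of 9 neutrophil markers tested 8 were lower in l-FA, their summed level being 50.3 to 58.0 CPM in Ctrl and 18.7 to 20.4 CPM in l-FA, and of 6 granulocyte-monocyte progenitor markers all 6 were lower, with sums of 23200 to 24100 CPM in Ctrl and 5720 to 6030 CPM in l-FA. Of 7 monocyte and macrophage markers 3 were lower and 3 higher, with sums of 530.0 to 609 and 553 to 566 CPM. The lower ones were Adgre1, Ly6c2 and Cx3cr1, from 4.06, 132.8 and 2.96 CPM in Ctrl. Their log2 fold changes were -3.085, -2.256 and -1.054 (adjusted p = 0.000913, 0.00166 and 0.00787 from edgeR). Ccr2 was higher, at 0.68 (adjusted p = 0.00482 from edgeR), as were Lyz2 and Csf1r. Adgre1, Ly6c2, Cx3cr1 and Ccr2 were named after their values were seen. Elane, a granule protease, fell by 2.82 (SE 0.017, edgeR adjusted p = 5.65e-09), and Ltf, the lactoferrin of later granulocytes, fell by 3.16 (SE 0.19, edgeR adjusted p = 5.01e-05), from 13.1 ± 0.720 CPM in Ctrl (SD, n = 3). Lyz2, the lysozyme of monocytes and granulocytes, rose by 0.30 (SE 0.022, edgeR adjusted p = 0.000102), and Csf1r by 0.10 (adjusted p = 0.0363 from edgeR, and up to 0.0962 over the alternatives). No marker of these 3 lists was at 0 in all libraries. Ly6g, a defining neutrophil marker, was at 3, 6 and 8 counts in Ctrl and at 0 in each l-FA library. Some of these markers also stand in the lists around the oxidase, namely S100a8 and S100a9 among the neutrophil markers and Mpo and Fcgr3 among the progenitor markers. Without them, 6 of 7 neutrophil markers were lower, with sums of 38.6 to 41.7 CPM in Ctrl and 13.1 to 15.1 CPM in l-FA. Likewise 4 of 4 progenitor markers were lower, with sums of 4870 to 4980 and 927 to 944 CPM. In the study's definitions, the lineage antibodies include Mac-1 and Gr-1, and granulocyte-monocyte progenitors lack Sca-1. The HSC gate is thus defined to leave out such cells, but the purity of the sort was not given in the sources used here. RNA of Itgam, which encodes a Mac-1 chain, was at 44.8 CPM in Ctrl and 63.6 CPM in l-FA. The part of granulocytes, macrophages and these progenitors in the level of Cybb and the other subunits was not tested.

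Markers of HSCs were present and mostly higher in l-FA, with 8 of 11 higher and 1 lower. These were 72.7% and 9.09%, against 25.5% and 25.0% of all genes tested. Slamf1 rose from 2.14 ± 0.566 to 7.97 ± 0.493 CPM and Procr from 32.9 ± 0.685 to 40.6 ± 0.775 CPM (SD, n = 3; adjusted p = 0.000338 and 0.00158 from edgeR). Slamf1 had only 32 to 51 counts a library in Ctrl. The lower marker was Hlf, named after its values were seen. It fell from 117.0 ± 2.71 to 94.7 ± 5.15 CPM (SD, n = 3; adjusted p = 0.00195 from edgeR). Although the sort took CD34- and Flk2- cells, Cd34 RNA was at 1343 ± 18.4 CPM and Flt3, the Flk2 gene, at 759 ± 3.43 CPM in Ctrl (SD, n = 3). Both were higher in l-FA, at 1579 ± 38.2 and 1183 ± 19.8 CPM (SD, n = 3; adjusted p = 0.000286 and 3.95e-06 from edgeR). Cd34 and Flt3 were named after their values were seen. Of 4 markers of multipotent progenitors 3 were higher and 1 lower. Of other lineages, 4 of 5 dendritic cell markers were higher and 1 lower, 4 of 5 eosinophil, basophil and mast cell markers were higher, and 3 of 5 megakaryocyte markers were higher, with none of the latter 2 lists lower. Of 6 erythroid markers 1 was lower and 1 higher, of 2 T and NK cell markers 1 was lower and 1 higher, and of 3 B cell markers 1 was higher. Epx, an eosinophil marker, and Meis1, an HSC marker, were also counted in the lists around the oxidase.

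**Figure D5:**
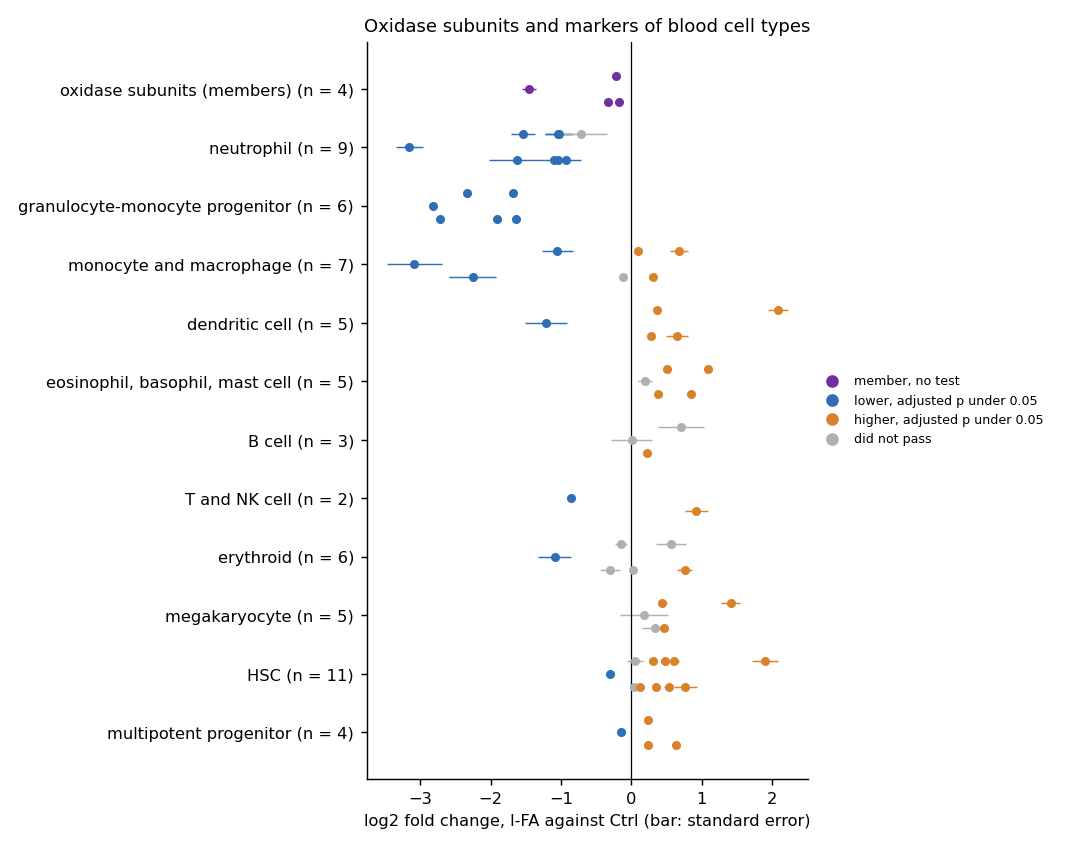
Log2 fold change of l-FA against Ctrl (horizontal axis) for the 4 members, without a test, and for tested markers of 11 blood cell types, with bars for the standard error and colours for calls at an adjusted p under 0.05 from edgeR. All 6 granulocyte-monocyte progenitor markers lie below 0, from -2.82 to -1.65, whereas most HSC markers lie above 0.

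Genes with the most similar pattern to the mean of the 4 members were sought among 10042 genes with a mean of at least 10 CPM, by the root mean square distance of centred log2 CPM over the 6 libraries. The 5 nearest were Uhmk1, Ppa1, Gusb, Anp32b and Isoc1, at distances of 0.0186 to 0.0250 on the log2 scale. The members themselves lay farther from their own mean, at 0.465 for Cybb, 0.194 for Cyba, 0.167 for Ncf1 and 0.109 for Ncf4, so Cybb was the least like the mean. The 5 genes are thus near an average that no single member follows, and are not the genes most like any 1 subunit.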

How the data were processed

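RNA from sorted HSCs of 3 Ctrl and 3 l-FA libraries was amplified with a SMART-Seq kit and sequenced on an Illumina NovaSeq instrument. The authors deposited whole-number read counts per gene and FPKM values for each library, and the submitters' processing notes name GRCm39, HISAT2, SAMtools 1.3.1, StringTie and edgeR, without saying which step each performed. FPKM values deposited by the authors were used only to compare levels between genes.

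Counts were analysed in R 4.3.3 with edgeR 4.0.16 by the quasi-likelihood test, after TMM normalization and the filterByExpr filter, which kept 16520 of 27198 genes, and p-values were adjusted by Benjamini-Hochberg over all of them. TMM factors were 0.9685 to 0.9787 in Ctrl and 1.025 to 1.032 in l-FA. Standard errors are of the log2 fold change. Errors beside means are SDs over libraries, and counting errors cover sampling of reads only. The script was tested on simulated counts.

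The 4 members and all gene lists were chosen with earlier results of these data known. Genes named were the members, every gene listed with the complex, and in each other oxidase list up to 3 called genes per direction with the largest change and a mean of at least 1 CPM. Spi1, Irf8, the markers Mpo, Elane, Ltf, Csf1r, Lyz2, Slamf1 and Procr, and the 5 genes most like the members were also named. Genes on more than 1 row were left out of the lists, and some listed genes are not reported here. Alternatives were RLE and upper-quartile scaling, no filter, at least 10 counts in every library, DESeq2 1.42.0, a replicate block, each library left out in turn, a fold change above 2, and, added after the data were seen, library totals alone, oxidase lists without genes that never exceeded 3 counts in Ctrl or in l-FA, and marker lists without genes of an oxidase list. Promoter sequences came from RefSeq on GRCm38.p6 and were matched by symbol for 3 of the 4 members, with no entry for Ncf4, and their coordinates were not mixed with the deposited ones.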

Additional observations from a re-analysis of the deposited data

How the results depend on the processing

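With library totals alone, added after the data were seen, the log2 fold changes were -0.092 for Cyba, -0.14 for Ncf1 and -0.25 for Ncf4, and that of Rap1a turned to 0.00067. The same scaling gave 24 oxidase genes lower and 26 higher, against 31 and 22. It also moved the median log2 fold change of all genes tested from 0.0035 to 0.082. The shares of all genes called under this scaling were not counted, so whether other genes turned likewise is not shown. Asking for a fold change above 2 left 8 oxidase genes lower and 3 higher, and of these 3 Nox1 and Noxa1 passed the low-count filter only through l-FA. Leaving out 1 library gave 29 to 31 lower and 20 to 24 higher, 17 to 18 neutrophil, progenitor and monocyte markers lower, and log2 fold changes of -1.53 to -1.37 for Cybb, -0.18 to -0.14 for Cyba, -0.24 to -0.18 for Ncf1 and -0.35 to -0.30 for Ncf4. With the replicate number as a block, Cybb was at -1.46, and 30 oxidase genes were lower and 18 higher. Over all genes the block gave 7405 calls against 8336, of which 7215 were shared. Deviations of same-numbered libraries correlated at -0.05 to 0.0187, and 0 of 3 l-FA libraries correlated best with their own number, so no pairing by number was visible. With 3 libraries per group, such correlations cannot exclude a shared sort day or batch. Of the other values, 49 for the members, which have no test, moved by less than the spread between libraries, and 42 counts of genes stayed within 1.5 times their value. For single genes with a test, 574 values kept their direction and side of the threshold and 49 lost their call. Each group has 3 libraries, and Cybb in l-FA rests on 135 to 168 counts a library.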
